A study of Rattus norvegicus with 8 samples.

Results

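The genes described are the rat iron, zinc and copper handling genes, taken as every row of the count table whose symbol belongs to the families Slc11a, Slc30a, Slc31a, Slc39a, Slc40a, Slc41a and Steap, to the metallothioneins, or is Tfrc, Fth1, Ftl1, Hamp, Cp, Atp7a or Atp7b. The rule found 46 genes among 16764 symbols. The 3 Slc41a genes that it takes encode magnesium carriers and not iron, zinc or copper proteins, and are given last. RNA sequencing counts were available for 3 stages of the male germ line with 2 libraries each. Undifferentiated spermatogonia (USg) were a Brown Norway rat spermatogonial line grown in SG medium and taken at day 0, before plating on laminin. Differentiating spermatogonia (DSg) were the same line 7 days after plating on laminin, with 120 h in SD medium, which holds all-trans retinoic acid and neuregulin-1. Spermatocyte-enriched cells (Spc) were isolated from testes as the fraction left unattached by plastic, collagen-I and laminin, then cultured for 2.5 days in DMEM:Ham's F12 with 10% FBS. The spermatogonial groups therefore come from 1 line, and Spc differ from it in source, selection and medium as well as in stage, which cannot be told apart. Since T120 stands in the titles of both spermatogonial groups, whether they were matched for time is not settled. The labels do not say that the libraries of a group came from separate animals, so p-values measure the spread between these libraries, which may be technical.

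Iron reaches most cells bound to transferrin, which the transferrin receptor takes into endosomes, where a Steap protein reduces the iron and Slc11a2 carries it into the cytosol. Ferritin stores iron there, and ferroportin (Slc40a1), which the liver hormone hepcidin blocks, exports it. Zinc is moved into the cytosol by Slc39a proteins and out of it, into vesicles or out of the cell, by Slc30a proteins, and metallothioneins bind the zinc and copper that is left free. In the testis the blood-testis barrier separates meiotic germ cells from serum transferrin, and rat Sertoli cells secrete transferrin and ceruloplasmin, the product of Cp.

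Levels are given as CPM, the read count of a gene relative to the TMM-scaled total of its library, in the order library 1 and library 2 of a group. Total counts ran between 2657291 and 5697165. All 10 undifferentiated spermatogonial markers had at least 5 CPM in both USg libraries. They summed to 1830 and 2190 CPM in USg, 324 and 321 CPM in DSg, and 214 and 195 CPM in Spc. Id4 went the other way, with 49.0 and 47.4 CPM in USg and 140 and 118 CPM in Spc. All 8 spermatocyte markers had at least 5 CPM in both Spc libraries, and 4 to 6 of them in each spermatogonial library. Their sums were 926 and 488 CPM in USg, 1030 and 571 CPM in DSg, and 6290 and 6960 CPM in Spc. The 5 differentiating markers summed to 1000 and 995 CPM in DSg, against 219 and 332 CPM in USg. Kit, Sohlh2 and Cyp26a1 were higher in both DSg libraries than in USg, whereas Sohlh1 (54.1 and 79.4 CPM in DSg, 43.2 and 147 CPM in USg) and Dmrtb1 (3.64 and 10.2 CPM in DSg, 3.09 and 5.52 CPM in USg) overlapped. Some libraries stood apart within their group. Ribosomal RNA genes took 7.81% of the counts in USg 1 and 12.4% in DSg 1, and at most 0.734% in the others. DSg 2 had counts for 96.7% of 1044 olfactory genes, against 23.4% to 64.1% in the other 5 libraries. Of 9 metal genes averaging under 5 CPM over the 6 libraries, 8 were highest in DSg 2. The metal genes took 0.379% and 0.368% of all counts in Spc, against 0.222% and 0.257% in USg and 0.216% and 0.267% in DSg.

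Of the 46 genes, 41 passed the filter on low counts and were tested with edgeR's quasi-likelihood test, with Benjamini-Hochberg adjustment over all 12210 genes tested. A gene is called where its adjusted p is below 0.05. The Spc comparisons with USg and with DSg use the same 2 Spc libraries, so their values are set side by side and their overlap is not read as a result. Against USg, 9 of the 41 genes were higher in Spc (22.0%) and 5 were lower (12.2%), where 17.9% of all genes tested were higher and 16.6% lower. Against DSg, 8 were higher in Spc (19.5%) and 3 lower (7.32%), where 14.8% of all genes were higher and 11.7% lower. These shares are near those of all genes, so the counts by themselves say nothing particular about metal genes. Hamp, among the higher genes in both, passed the filter through the Spc libraries alone. Between DSg and USg no metal gene was called, where 0.565% of all genes were higher in DSg and 1.92% lower. There, 9 of the 41 had an unadjusted p below 0.05, and DESeq2 also called 0. The median log2 fold change of the 41 genes was 0.28 for Spc over USg, 0.18 for Spc over DSg and −0.10 for DSg over USg, beside −0.04, −0.03 and 0.01 over all genes tested. These medians were not stable: total-count scaling gave −0.03 for Spc over DSg and 0.11 for DSg over USg, leaving out USg 2 gave 0.67 for Spc over USg and 0.19 for DSg over USg, and leaving out DSg 2 gave 0.51 for Spc over DSg.

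The counts rest on few libraries. Without USg 1 the DSg over USg comparison called 2 genes higher and 3 lower, without Spc 1 it called 2 lower and without Spc 2 it called 1 lower, the Spc libraries entering through the shared spread. For Spc over USg, the 9 higher became 14 without USg 2 and 5 without Spc 1 or without Spc 2. For Spc over DSg, the 8 higher became 2 without DSg 1 or DSg 2, 5 without Spc 1 and 13 without USg 1 or USg 2, and the 3 lower became 1 without DSg 1, Spc 1 or Spc 2. Leaving out USg 1 and DSg 1 together, the libraries rich in ribosomal RNA, gave 9 higher and 12 lower for DSg over USg, 18 and 10 for Spc over USg, and 16 and 9 for Spc over DSg, of 45 metal genes tested. Of all 14026 genes tested in that fit, 2992 and 3335, 4081 and 4165, and 4115 and 4177 were called in the same order, so calls were frequent throughout. All 25 calls made with 6 libraries also passed there. In that fit USg and DSg have 1 library each, assumed to vary like Spc, the only pair left to measure the spread. Scaling by total counts turned the Spc over DSg split into 5 higher and 4 lower, with 1407 and 1681 for all genes beside 1806 and 1433.

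**Figure D1:**
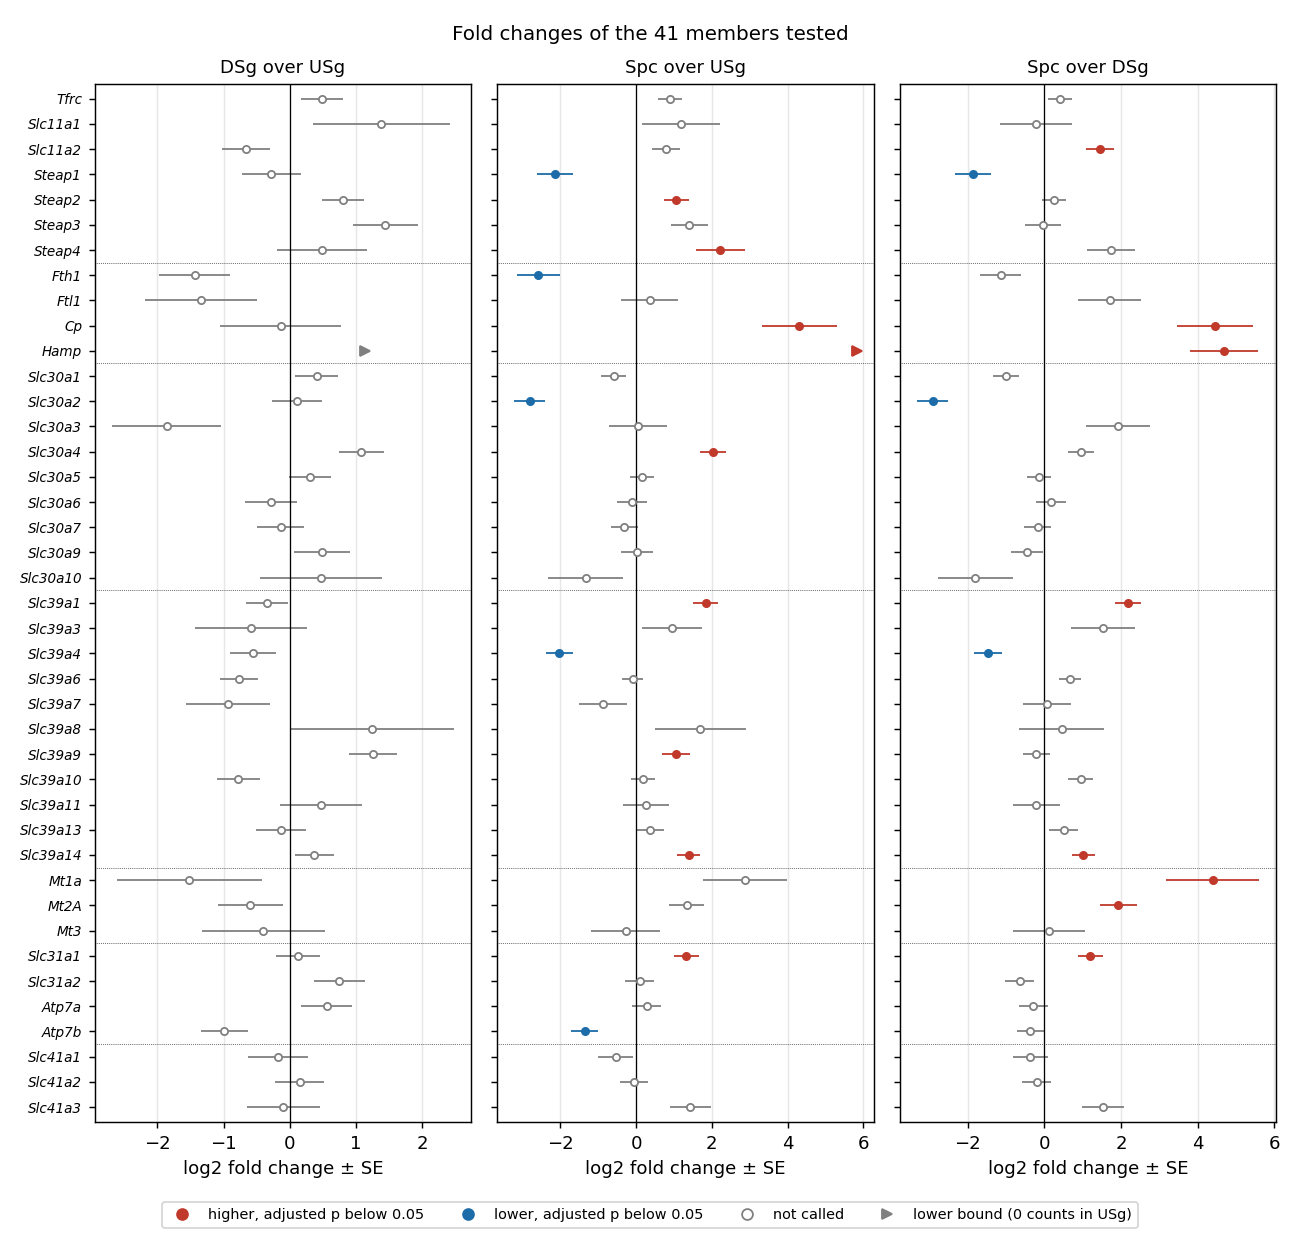
Log2 fold change ± SE of the 41 tested genes in the comparisons of DSg over USg, Spc over USg and Spc over DSg, with genes down the page in order of role. Filled points are called, red for higher and blue for lower, and a triangle marks the lower bound for Hamp, which had 0 counts in USg; the 9 higher and 5 lower genes of the middle panel and the 8 higher and 3 lower of the right one are filled, and no point of the left panel is.

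Summed levels of several other testis cell lists were higher in Spc, and that of the endothelial list was lower. The 11 Sertoli markers in the table summed to 414 and 471 CPM in USg, 261 and 226 CPM in DSg, and 1970 and 1700 CPM in Spc, and 8 and 9 of them had at least 5 CPM in Spc 1 and Spc 2. The 8 peritubular and fibroblast markers summed to 460 and 232 CPM in USg, 283 and 250 CPM in DSg, and 2290 and 2190 CPM in Spc. Col3a1 (1330 and 1140 CPM) and Dcn (538 and 558 CPM) made up most of the Spc sum, while Col1a1 was not higher in Spc (142 and 172 CPM) than in USg (312 and 115 CPM), and Thy1 was lower (0.394 and 1.74 CPM in Spc, 6.95 and 15 CPM in USg). All markers of both lists had counts in both Spc libraries, whereas Rhox5 had 0 counts in USg 1, and Amh and Lum had 0 in DSg 1. The erythroid list, of 7 genes, summed to 184 and 149 CPM in Spc, mostly alpha globin, against at most 22.4 CPM elsewhere. Its alpha globin genes Hba1 and Hba2 had equal counts in Spc (445 and 311) and may share reads. Klf1 (1.18 and 0.653 CPM) and Slc4a1 (1.18 and 2.83 CPM) were lower in both Spc libraries than in every other library. The Leydig list reached 163 and 174 CPM in Spc through Star alone, and its defining gene Insl3 had 1 and 0 counts in Spc 1 and Spc 2. The 10 macrophage markers summed to 58.7 and 42.7 CPM in USg, 27.1 and 53.0 CPM in DSg and 87.9 and 108 CPM in Spc. The 5 endothelial markers summed to 210 and 138 CPM in USg, 62.2 and 80.5 CPM in DSg and 32.9 and 44.4 CPM in Spc. Pecam1 and Vwf were lower in both Spc libraries than in every other library, and Kdr was lower than in USg only. Cdh5 was higher in Spc (5.52 and 6.75 CPM) than elsewhere (at most 4.85 CPM), and Tek overlapped. All 5 had at least 5 CPM in both Spc libraries, against 3 or 4 of them in each other library. The part of these cells in the Spc differences described here was not tested, and in bulk RNA fewer cells of a type cannot be told apart from less RNA per cell.

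Among the genes of iron import and reduction, Steap2 and Steap4 rose and Steap1 fell in Spc relative to USg, and Slc11a2 rose and Steap1 fell relative to DSg, while the transferrin receptor was not called in any comparison. Tfrc, the transferrin receptor, had 271 and 177 CPM in USg, 350 and 279 CPM in DSg, and 415 and 415 CPM in Spc. The stages did not overlap, and each was above the one before it. The log2 fold change was 0.89 ± 0.32 for Spc over USg (adjusted p = 0.0576), 0.49 ± 0.32 for DSg over USg (adjusted p = 0.434) and 0.40 ± 0.32 for Spc over DSg (adjusted p = 0.372), so that no step passed the test. Without USg 1 the Spc over USg difference was 1.19 and passed (adjusted p = 0.0394), and DESeq2 also called it (adjusted p = 0.0482).

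Slc11a2, the divalent metal carrier of the endosome also known as DMT1, had 38.6 and 62.0 CPM in USg, 26.3 and 37.4 CPM in DSg, and 93.0 and 81.7 CPM in Spc. Both Spc libraries were above all spermatogonial ones, and the DSg pair lay below the USg pair. Slc11a2 rose in Spc over DSg by 1.45 ± 0.37 on the log2 scale (adjusted p = 0.0204), and was not called in Spc over USg (0.79 ± 0.36, adjusted p = 0.120), where it passed without USg 2 (1.19, adjusted p = 0.0420) and was 0.45 without USg 1. The call over DSg was lost when any of DSg 1, DSg 2, Spc 1 or Spc 2 was left out, with adjusted p = 0.0817, 0.0531, 0.136 and 0.0698 in that order. Slc11a1, the metal carrier of macrophage phagosomes, stayed between 0.808 and 5.92 CPM, highest in DSg 2, and was not called.

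The Steap family did not move as a group. Steap3, the endosomal ferrireductase of red cell precursors in mouse, had 3.86 and 6.77 CPM in USg, 11.3 and 18.3 CPM in DSg, and 14.98 and 14.15 CPM in Spc. USg lay below the other stages, which overlapped each other, and none of its differences was called (log2 fold change 1.41 ± 0.49 for Spc over USg, adjusted p = 0.0515, and 1.44 ± 0.49 for DSg over USg, adjusted p = 0.168). Spc over USg lay at the threshold, passing without USg 2 (1.92, adjusted p = 0.0232) or DSg 2 (0.0475) and under several other settings. Steap2, another metalloreductase, had 20.1 and 22.3 CPM in USg, 37.2 and 37.2 CPM in DSg, and 44.9 and 44.0 CPM in Spc, and its replicates lay close together in every stage. It rose in Spc over USg by 1.07 ± 0.32 (adjusted p = 0.0308), a call lost without USg 1 (adjusted p = 0.0800), Spc 1 (0.301) or Spc 2 (0.264). Steap4, a metalloreductase known for its induction in inflamed tissue, had 3.86 and 1.60 CPM in USg, 2.83 and 4.31 CPM in DSg, and 11.6 and 12.6 CPM in Spc. Steap4 rose in Spc over USg by 2.22 ± 0.64 (adjusted p = 0.0263), with 2.85 without USg 1, and was not called over DSg (1.74 ± 0.62, adjusted p = 0.0693). Over DSg it passed without USg 1 (1.84, adjusted p = 0.0198) or USg 2 (1.81, adjusted p = 0.0165). The call over USg was lost without USg 2 (adjusted p = 0.0840), Spc 1 (0.148) or Spc 2 (0.191). Steap1, which lacks the reductase domain of the other Steap proteins, went the other way, with 26.6 and 35.8 CPM in USg, 36.0 and 16.2 CPM in DSg, and 7.88 and 6.31 CPM in Spc. Both Spc libraries were below all 4 of the line. It fell by 2.14 ± 0.47 on the log2 scale in Spc relative to USg (adjusted p = 0.00881) and fell by 1.86 ± 0.48 relative to DSg (adjusted p = 0.0210). The difference from DSg was −1.003 without DSg 1 (adjusted p = 0.159) and was not called without Spc 1 (adjusted p = 0.0642) or Spc 2 (0.128).

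Of the genes of iron storage, export and its hormone, Cp and Hamp rose and Fth1 fell in Spc relative to USg, and Cp and Hamp rose relative to DSg. Cp, a copper-carrying ferroxidase that oxidises exported iron for transferrin, had 45.9 and 3.74 CPM in USg, 33.5 and 10.5 CPM in DSg, and 450 and 495 CPM in Spc. The lowest Spc library was far above the highest library of the line, while the libraries of USg and of DSg were themselves far apart, library 1 being the higher in both stages. Its log2 fold change was 4.31 ± 0.98 for Spc over USg (adjusted p = 0.00985) and 4.45 ± 0.99 for Spc over DSg (adjusted p = 0.0116). Without USg 1 the fold change over USg was 6.93 and without USg 2 it was 3.38, both called. The call over DSg was lost without DSg 1 (5.67, adjusted p = 0.0501) or without DSg 2 (3.81, adjusted p = 0.106). The DSg over USg difference of Cp turned on the library, being −0.14 ± 0.92 with all libraries and 2.42 without USg 1 (adjusted p = 0.0479). Cp overlaps Hps3 in the RefSeq annotation of GRCr8, so its reads are uncertain if strand was not used in counting.

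Hamp, the gene of hepcidin, had 0 counts in both USg libraries and in DSg 1, 5 counts in DSg 2 (1.35 CPM), and 99 and 100 counts in Spc, or 19.5 and 21.8 CPM. Both Spc libraries were thus far above all 4 of the line. Hamp passed the filter on low counts through the Spc libraries alone. In the Spc comparisons it could thus only be called higher in Spc, and its calls add no separate support. Its level in Spc was at least 56.3-fold higher than in USg, taking a floor of 3 counts over the USg pair (0.366 CPM), and the difference was called (adjusted p = 0.00174). Over DSg the log2 fold change was 4.69 ± 0.88 (adjusted p = 0.00740), resting on 5 counts in DSg 2. It was 4.08 without DSg 1, and without DSg 2 the remaining DSg library holds 0 counts. The call held in both cases. Slc40a1, the gene of ferroportin, the iron exporter that hepcidin binds, did not pass the filter and had at most 2.42 CPM in any library. Its counts were 3 and 4 in USg, 3 and 9 in DSg, and 1 and 1 in Spc. The Spc pair, with 2 counts, was lower than DSg with 12, a DSg to Spc ratio of 9.37 (exact 95% interval 2.09 to 86.2, counting error only), and lower than USg with 7, a USg to Spc ratio of 4.12 (0.785 to 40.7). The ratio of DSg to Spc rests largely on the 9 counts of DSg 2, the library with counts for 96.7% of olfactory genes.

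Fth1, the heavy chain of ferritin that oxidises iron for storage, had 319 and 210 CPM in USg, 147 and 49.3 CPM in DSg, and 58.3 and 30.3 CPM in Spc. USg lay above the other stages, and DSg 2 lay between the Spc libraries. It fell by 2.57 ± 0.56 on the log2 scale in Spc relative to USg (adjusted p = 0.00774), and this call held with each library left out in turn. The DSg over USg difference of −1.44 ± 0.54 (adjusted p = 0.199) and the Spc over DSg difference of −1.14 ± 0.54 (adjusted p = 0.149) were not called, and without DSg 1 the Spc over DSg value was 0.03 (adjusted p = 0.971). The DSg over USg value was −2.60 without DSg 1 (adjusted p = 0.120) and −0.84 without DSg 2 (adjusted p = 0.474), and it was called with no filter (−1.52, adjusted p = 0.0179). Ftl1, the light chain, had 6.56 and 2.14 CPM in USg, 1.62 and 1.62 CPM in DSg, and 6.31 and 4.35 CPM in Spc, and was not called. RefSeq names 6 further loci for Fth1 (5 of them pseudogenes) and 21 for Ftl1 (15 pseudogenes), so reads of either gene may have been split or dropped and their levels are uncertain.

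**Figure D2:**
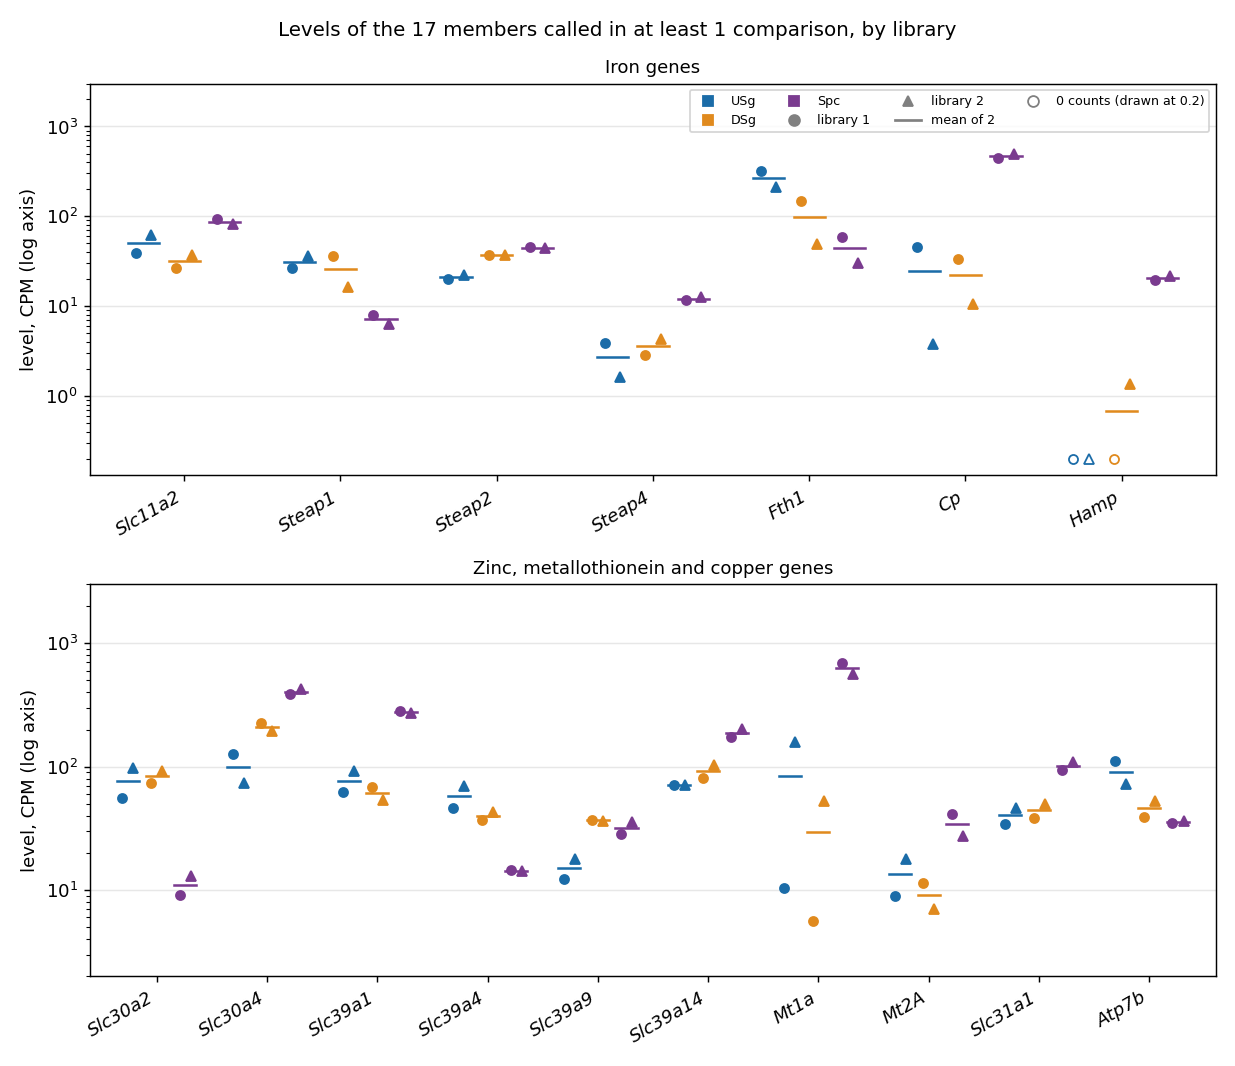
Level in CPM on a log axis of the 17 genes called in at least 1 comparison, by library, with iron genes above and zinc, metallothionein and copper genes below; circles are library 1, triangles library 2, lines the mean of 2, and open symbols 0 counts. Within each gene the stages run from USg through DSg to Spc; Cp, Hamp, Mt1a and Slc39a1 stand highest in Spc, and Steap1, Slc30a2 and Slc39a4 lowest, and the libraries of USg and of DSg lie far apart for Cp and Mt1a.

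The zinc exporters of the Slc30a family were mixed. Of 9 tested, 1 rose (Slc30a4) and 1 fell (Slc30a2) in Spc relative to USg, 1 fell relative to DSg (Slc30a2), and none was called in DSg relative to USg. For Spc over USg these are 11.1% higher and 11.1% lower, beside 17.9% and 16.6% of all genes tested. For Spc over DSg they are 0% and 11.1%, beside 14.8% and 11.7%. Slc30a2, which loads zinc into secretory vesicles, had 56.0 and 97.8 CPM in USg, 73.9 and 92.6 CPM in DSg, and 9.07 and 13.1 CPM in Spc. The 4 libraries of the line overlapped, and both Spc libraries were several-fold below them. Slc30a2 fell by 2.80 ± 0.41 on the log2 scale relative to USg (adjusted p = 0.00131) and fell by 2.91 ± 0.41 relative to DSg (adjusted p = 0.00164), and both calls held with each library left out. Slc30a4, another vesicular zinc exporter, had 127 and 73.4 CPM in USg, 228 and 194 CPM in DSg, and 386 and 428 CPM in Spc. The stages did not overlap and stood in the order USg, DSg, Spc. Slc30a4 rose in Spc over USg by 2.03 ± 0.35 (adjusted p = 0.00254), a call that held with each library left out. Neither DSg over USg (1.08 ± 0.34, adjusted p = 0.141) nor Spc over DSg (0.95 ± 0.34, adjusted p = 0.0663) was called with all libraries. DSg over USg passed without USg 1 (1.398, adjusted p = 0.0453), and Spc over DSg passed without USg 1 (adjusted p = 0.0242) or USg 2 (0.0234).

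Slc30a1, the zinc exporter of the plasma membrane, had 108 and 73.0 CPM in USg, 126 and 114 CPM in DSg, and 51.4 and 68.6 CPM in Spc. Spc was the lowest stage and DSg the highest, with a log2 fold change of −0.995 ± 0.334 for Spc over DSg that was not called (adjusted p = 0.0562). It passed without USg 2 (−0.93, adjusted p = 0.0430) and with DESeq2 (adjusted p = 0.0453). Slc30a3, a zinc carrier of synaptic vesicles, had 9.65 and 84.0 CPM in USg, 7.68 and 18.04 CPM in DSg, and 57.0 and 42.0 CPM in Spc. The USg libraries lay on either side of Spc, and no difference was called. Slc30a5, Slc30a6 and Slc30a7, zinc carriers of the secretory pathway, and Slc30a9 were not called, with log2 fold changes between −0.46 and 0.49 in the 3 comparisons. Slc30a10, which exports manganese in human cells, stayed between 0.394 and 3.50 CPM. Slc30a8, the zinc carrier of insulin granules, had 3, 5 and 4 counts in USg, DSg and Spc and was not tested.

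Of the 11 zinc importers of the Slc39a family that were tested, 3 rose (Slc39a1, Slc39a9 and Slc39a14) and 1 fell (Slc39a4) in Spc relative to USg. Relative to DSg, 2 rose (Slc39a1 and Slc39a14) and 1 fell (Slc39a4), and none was called in DSg relative to USg. For Spc over USg these are 27.3% higher and 9.09% lower, beside 17.9% and 16.6% of all genes tested. For Spc over DSg they are 18.2% and 9.09%, beside 14.8% and 11.7%. Slc39a1, a zinc importer of the plasma membrane, had 62.1 and 92.1 CPM in USg, 68.3 and 53.9 CPM in DSg, and 282 and 273 CPM in Spc. The line's libraries overlapped between stages, and both Spc libraries stood about as far above each. The log2 fold change was 1.84 ± 0.33 over USg (adjusted p = 0.00310) and 2.19 ± 0.33 over DSg (adjusted p = 0.00224), and each call held with any library left out. Slc39a14, a plasma membrane carrier of zinc, manganese and iron that is not bound to transferrin, had 71.4 and 71.2 CPM in USg, 81.6 and 103 CPM in DSg, and 173 and 201 CPM in Spc. The stages did not overlap. Slc39a14 rose in Spc by 1.39 ± 0.30 over USg (adjusted p = 0.00768) and 1.02 ± 0.30 over DSg (adjusted p = 0.0346). The call over USg was lost without Spc 1 (adjusted p = 0.0819) or Spc 2 (0.144), and that over DSg without DSg 1 (0.0830), DSg 2 (0.0658), Spc 1 (0.232) or Spc 2 (0.353).

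Slc39a4, the zinc importer of the intestine, had 46.3 and 70.2 CPM in USg, 36.8 and 42.6 CPM in DSg, and 14.6 and 14.2 CPM in Spc. The stages did not overlap and stood in the order USg, DSg, Spc from high to low. It fell by 2.02 ± 0.36 on the log2 scale relative to USg (adjusted p = 0.00311), with the call held in every case of a library left out, and fell by 1.46 ± 0.36 relative to DSg (adjusted p = 0.0174). The call against DSg was lost without DSg 1 (adjusted p = 0.0681), DSg 2 (0.0730), Spc 1 (0.217) or Spc 2 (0.212). Slc39a9, a carrier of the Golgi membrane, had 12.4 and 17.98 CPM in USg, 37.2 and 36.4 CPM in DSg, and 28.4 and 35.5 CPM in Spc. Both later stages were above USg, and Spc and DSg lay close to each other. It rose in Spc over USg by 1.06 ± 0.36 (adjusted p = 0.0493). This value lay near the threshold and missed it without any 1 of USg 1, DSg 1, DSg 2, Spc 1 or Spc 2 (adjusted p between 0.0629 and 0.401). DSg over USg, at 1.26 ± 0.36, was not called (adjusted p = 0.113).

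Slc39a10, a plasma membrane zinc importer, had 109 and 78.2 CPM in USg, 62.2 and 47.1 CPM in DSg, and 99.5 and 112 CPM in Spc. DSg was the lowest stage, and neither Spc over DSg (0.95 ± 0.33, adjusted p = 0.0609) nor DSg over USg (−0.78 ± 0.33, adjusted p = 0.246) was called. Spc over DSg passed without USg 1 (adjusted p = 0.0348) or USg 2 (0.0316). Slc39a6, which pairs with Slc39a10 in mouse cells, had 192 and 193 CPM in USg, 122 and 106 CPM in DSg, and 166 and 196 CPM in Spc, with DSg again the lowest stage and no call. Slc39a7, a zinc channel of the endoplasmic reticulum, differed more between the libraries of USg (71.0 and 317 CPM) than between stages, and overlaps Rxrb in the annotation. Of the rest, Slc39a3, Slc39a8, Slc39a11 and Slc39a13 were not called. Slc39a2, Slc39a5 and Slc39a12 did not pass the filter. Slc39a5 had 29 counts in DSg 2, 0 in DSg 1 and 3 over both USg libraries, so that its DSg to USg ratio of 12.8 (exact 95% interval 3.97 to 65.8, counting error only) rests on 1 library.

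The metallothioneins Mt1a and Mt2A, small proteins that bind zinc and copper, rose in Spc relative to DSg and were above USg by amounts that were not called. The USg and DSg libraries themselves differed widely for Mt1a. Mt1a had 10.4 and 159 CPM in USg, 5.66 and 53.1 CPM in DSg, and 696 and 564 CPM in Spc. Both Spc libraries were above all 4 libraries of the line, and in USg as in DSg library 2 was far above library 1. The log2 fold change was 4.39 ± 1.21 for Spc over DSg (adjusted p = 0.0276) and 2.87 ± 1.12 for Spc over USg (adjusted p = 0.0759). The call over DSg was lost without DSg 1 (3.75, adjusted p = 0.119) or DSg 2 (6.79, adjusted p = 0.0521). The difference from USg was 5.93 without USg 2 (adjusted p = 0.00106) and 1.94 without USg 1 (adjusted p = 0.0759), and it also passed without Spc 1 (2.69, adjusted p = 0.000175) or Spc 2 (3.03, adjusted p = 9.49e-05). Mt2A had 8.88 and 17.98 CPM in USg, 11.3 and 7.001 CPM in DSg, and 41.6 and 27.7 CPM in Spc. Spc lay above both other stages, which overlapped. It rose in Spc over DSg by 1.93 ± 0.49 (adjusted p = 0.0199), and stood 1.34 ± 0.47 above USg without a call (adjusted p = 0.0539), which it gained without USg 2 (1.98, adjusted p = 0.0133). The call over DSg was lost without DSg 1 (adjusted p = 0.0507), DSg 2 (0.122) or Spc 1 (0.105). Mt3, the brain metallothionein, had 1.93 and 13.5 CPM in USg, 1.62 and 10.2 CPM in DSg, and 7.49 and 5.88 CPM in Spc, and was not called. RefSeq names 3 pseudogenes of the gene that the table calls Mt1a and RefSeq calls Mt1, so its counts are uncertain.

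Metallothionein genes are switched on by zinc and cadmium through MTF1, a zinc finger factor that binds metal response elements in their promoters. Mt1a, Mt2A and Mt3 lie side by side on chromosome 19, and their promoters are shown because Mt1a and Mt2A rose together in Spc over DSg while their neighbour Mt3 was not called. Slc30a1, whose mouse gene is also a target of MTF1, is shown beside them, since its level was lowest in Spc and not highest. Each sequence is the 250 bases before the RefSeq start in GRCr8, written 5′ to 3′ on the gene's strand, and capitals mark the metal response element core, searched as TGCACNC or TGCGCNC on both strands.
Mt1a, chr19:10832976-10833225, strand -: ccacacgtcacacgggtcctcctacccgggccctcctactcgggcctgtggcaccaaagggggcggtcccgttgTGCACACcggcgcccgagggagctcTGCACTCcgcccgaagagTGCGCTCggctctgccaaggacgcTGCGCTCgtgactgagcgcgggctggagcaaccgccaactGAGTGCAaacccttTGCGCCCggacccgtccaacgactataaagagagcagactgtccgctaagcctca
Mt2A, chr19:10838709-10838958, strand -: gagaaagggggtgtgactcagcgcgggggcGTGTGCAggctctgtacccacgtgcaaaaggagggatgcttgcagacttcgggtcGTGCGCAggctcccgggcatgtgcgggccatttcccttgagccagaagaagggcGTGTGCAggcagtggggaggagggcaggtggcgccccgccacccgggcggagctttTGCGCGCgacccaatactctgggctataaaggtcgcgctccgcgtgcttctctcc
Mt3, chr19:10856081-10856330, strand -: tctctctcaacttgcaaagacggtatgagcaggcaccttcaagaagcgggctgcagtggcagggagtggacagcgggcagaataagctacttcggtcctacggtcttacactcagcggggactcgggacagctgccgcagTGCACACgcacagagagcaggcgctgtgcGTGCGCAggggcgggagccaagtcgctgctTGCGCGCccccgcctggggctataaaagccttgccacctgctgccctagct
Slc30a1, chr13:106021769-106022018, strand +: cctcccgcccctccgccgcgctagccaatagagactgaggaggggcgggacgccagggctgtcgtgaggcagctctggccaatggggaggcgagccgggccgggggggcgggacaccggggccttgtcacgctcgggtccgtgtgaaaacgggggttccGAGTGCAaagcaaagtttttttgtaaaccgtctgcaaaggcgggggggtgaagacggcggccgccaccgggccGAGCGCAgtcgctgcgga
Mt1a held 6 matches, 5 of them on its own strand, Mt2A held 4 and Mt3 held 3. Slc30a1 held 2, both on the other strand. Of the 37 metal genes with a promoter in the table, 17 held at least 1 match (45.9%), 6 at least 3 (16.2%) and 3 at least 4 (8.11%), where of 33469 promoters 20.6% held at least 1, 1.17% at least 3 and 0.266% at least 4. The third gene with 4 or more was Slc39a7, and Steap1 and Tfrc held 3 each. Matches were thus present in genes that rose (Mt1a, Mt2A), fell (Steap1) and were not called (Mt3, Tfrc, Slc39a7). A match is a run of letters and not a site of binding, and the other 9 genes had no promoter to search.

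**Figure D3:**
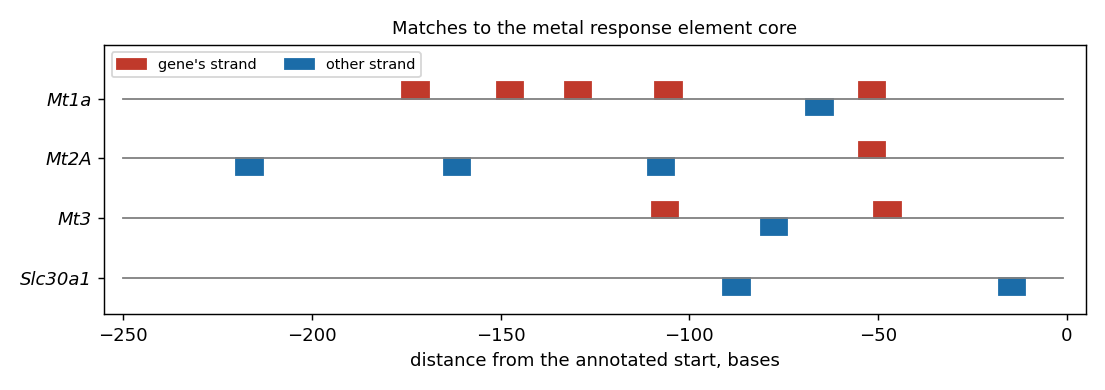
Position of matches to the metal response element core in the 250 bases before the start of Mt1a, Mt2A, Mt3 and Slc30a1, as distance in bases from the annotated start; boxes above a line are matches on the gene's strand and boxes below it matches on the other strand. Mt1a has 6, Mt2A 4, Mt3 3 and Slc30a1 2, and the 3 metallothioneins each have a match on their own strand within bases −55 to −45.

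Among the copper genes, Slc31a1 rose in Spc relative to both USg and DSg, and Atp7b fell relative to USg. Slc31a1, the high-affinity copper importer CTR1, had 34.3 and 46.7 CPM in USg, 38.4 and 50.1 CPM in DSg, and 94.4 and 110 CPM in Spc. The line's stages overlapped, and both Spc libraries were above them. The log2 fold change was 1.33 ± 0.33 over USg (adjusted p = 0.0153) and 1.20 ± 0.33 over DSg (adjusted p = 0.0283). Over USg the call was lost when Spc 1 (adjusted p = 0.111), Spc 2 (0.185) or USg 1 (0.0564) was left out, and that over DSg without DSg 1 (0.0872), DSg 2 (0.0648), Spc 1 (0.154) or Spc 2 (0.248). Slc31a1 overlaps Fkbp15 in the annotation. Atp7b, the copper ATPase that loads ceruloplasmin in the liver, had 111 and 72.1 CPM in USg, 39.2 and 52.5 CPM in DSg, and 34.9 and 36.4 CPM in Spc. USg was the highest stage and the Spc libraries the lowest. Atp7b fell by 1.36 ± 0.35 on the log2 scale in Spc relative to USg (adjusted p = 0.0174), a call lost without Spc 1 (adjusted p = 0.195) or Spc 2 (0.175), and the DSg over USg difference of −0.99 ± 0.35 was not called (adjusted p = 0.182). Atp7a, the copper ATPase of most other tissues, had 29.7 and 17.1 CPM in USg, 38.0 and 30.4 CPM in DSg, and 26.8 and 29.4 CPM in Spc, and was not called. Slc31a2, a related copper carrier of vesicles, was not called either.

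The magnesium carriers were not called in any comparison. Slc41a3 came nearest, with 6.56 and 16.6 CPM in USg, 6.47 and 15.4 CPM in DSg, and 30.2 and 34.2 CPM in Spc. Spc lay above the line, where library 2 exceeded library 1 in both stages, and the log2 fold change was 1.43 ± 0.54 over USg (adjusted p = 0.0675) and 1.53 ± 0.55 over DSg (adjusted p = 0.0680). Slc41a1 and Slc41a2 had log2 fold changes between −0.54 and 0.15.

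Other genes of iron, heme, copper and zinc metabolism were listed beside the family members, 56 in the table and 50 tested. Of these, 8 rose and 5 fell in Spc relative to USg, 6 rose and 5 fell relative to DSg, and 2 fell in DSg relative to USg. These are 16% and 10%, 12% and 10%, and 4% of the 50, beside 17.9% and 16.6%, 14.8% and 11.7%, and 1.92% of all genes tested. Tf, the gene of transferrin, averaged 585 ± 3.74 CPM in Spc, against 7.03 ± 3.40 CPM in USg and 9.63 ± 0.669 CPM in DSg (SD, n = 2 each), a log2 fold change of 6.31 ± 0.43 over USg (adjusted p = 0.000103) and 5.93 ± 0.42 over DSg (adjusted p = 0.000146). Tf also belongs to the Sertoli marker list, where it gave 583 and 588 CPM of the Spc sums of 1970 and 1700 CPM. The rise of that sum is thus in part the rise of Tf itself. The part of Sertoli cells in the levels of Tf and Cp was not tested. Lcn2, which binds iron-loaded siderophores, averaged 312 ± 39.1 CPM in Spc, against 15.1 ± 3.21 CPM in USg and 2.29 ± 0.952 CPM in DSg, a log2 fold change of 4.38 ± 0.38 over USg (adjusted p = 0.000189) and 7.02 ± 0.46 over DSg (adjusted p = 0.000115). It fell by 2.64 ± 0.43 on the log2 scale in DSg relative to USg (adjusted p = 0.0234). Slc25a28, a mitochondrial iron importer, in DSg fell by 2.43 ± 0.44 relative to USg (adjusted p = 0.0298) and rose in Spc by 2.95 ± 0.44 over DSg (adjusted p = 0.00212). Aco1, which as iron regulatory protein binds the messengers of Tfrc and Fth1 when iron is low, averaged 42.6 ± 2.85 CPM in Spc and 130 ± 26.3 CPM in USg, and fell by 1.61 ± 0.31 (adjusted p = 0.00477).

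Of 23 heme and iron-sulfur genes, 5 rose and 4 fell in Spc relative to USg, and 2 rose and 4 fell relative to DSg. These are 21.7% and 17.4%, and 8.70% and 17.4%, beside 17.9% and 16.6%, and 14.8% and 11.7%, of all genes tested. Alas1, the enzyme that starts heme synthesis, rose by 1.32 ± 0.29 over USg (adjusted p = 0.00882) and 1.67 ± 0.30 over DSg (adjusted p = 0.00469). Of the enzymes that follow it, Alad fell by 2.34 ± 0.50 relative to USg (adjusted p = 0.00696), and Cpox fell by 1.09 ± 0.35 relative to DSg (adjusted p = 0.0489). Alas2, the form of red cell precursors and 1 of the 5 that rose over USg, had 23 counts in each Spc library and 1 in each USg library. Like Hamp, it passed the filter through the Spc libraries alone and could only be called higher there. It belongs to the erythroid list, which was higher in Spc mostly through alpha globin, while its members Klf1 and Slc4a1 were lower there. Hmox1, which degrades heme, averaged 95.6 ± 25.6 CPM in Spc and 26.4 ± 6.10 CPM in DSg and rose by 1.86 ± 0.38 (adjusted p = 0.00850). Among the iron-sulfur cluster genes, Isca1 and Isca2 rose in Spc over USg by 1.64 ± 0.40 and 1.47 ± 0.45 (adjusted p = 0.0136 and 0.0331), whereas Glrx5 fell by 1.91 ± 0.36 (adjusted p = 0.00398) and Hscb fell by 2.12 ± 0.31 (adjusted p = 0.00132). Of 9 other copper genes, Sod3, the secreted superoxide dismutase, averaged 113 ± 47.6 CPM in Spc, against 0.668 ± 0.693 CPM in USg and 1.15 ± 1.05 CPM in DSg, and was called over both. None of the 3 other zinc genes tested, Mtf1 among them, was called.

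**Figure D4:**
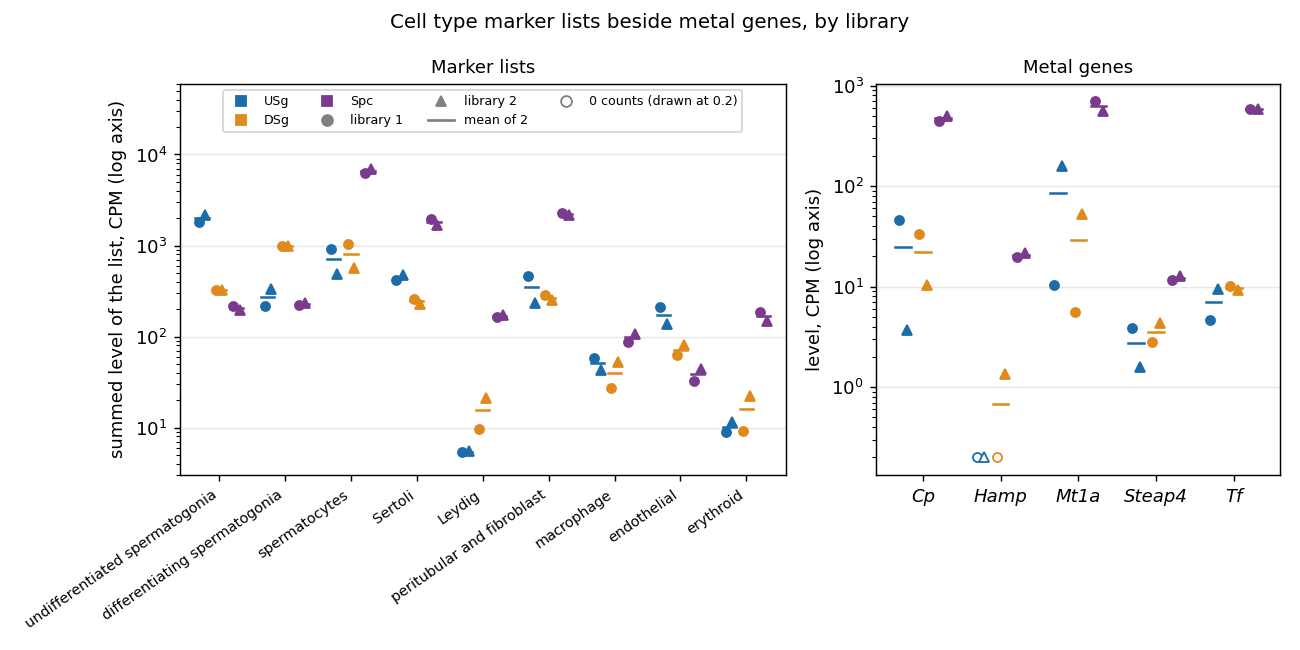
Summed level of each cell type marker list (left) and level of Cp, Hamp, Mt1a, Steap4 and Tf (right), in CPM on log axes, by library in the order USg, DSg, Spc; circles are library 1, triangles library 2, lines the mean of 2, and open symbols 0 counts. The spermatocyte, Sertoli, Leydig, peritubular and fibroblast, macrophage, and erythroid lists are highest in Spc, as are the 5 metal genes drawn. Tf is also part of the Sertoli sum. Library 1 and library 2 of USg and of DSg lie far apart for Cp and Mt1a.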

How the data were processed

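RNA sequencing counts of 6 libraries (2 each of USg, DSg and Spc) were analysed, and 2 samples of Foxa2 chromatin immunoprecipitation were not used here. The authors deposited 1 table of raw counts by gene symbol, with no normalization, as its whole numbers and unequal totals show. Per the submitters' processing notes the tools included STAR 2.5.3a, Bowtie2 2.2.3, featureCounts, Subread 1.4.6 and edgeR 3.2.4, with builds rn6 and rn5; which of them made the counts, with what annotation and strand setting, is not given in the sources used here, so overlapping genes and near-identical copies are uncertain.

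Counts were scaled with TMM factors and tested in edgeR 4.0.16 (with R 4.3.3 and limma 3.58.1) by its two-sided quasi-likelihood test, all 6 libraries being fitted together with 3 residual degrees of freedom, after filterByExpr (minimum count 10, minimum total count 15) left 12210 genes. P-values were adjusted over these by Benjamini-Hochberg, with a threshold of 0.05. The SE of a log2 fold change is its size over the square root of F. A group at 0 counts was set at a floor of 3 for the group, and groups of 1 to 3 counts a ratio with an exact binomial interval of 95%; floors and intervals cover counting error only. The scripts were tested on simulated data.

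Values in every library are given for each gene called in any comparison with at least 5 CPM and, whatever their result, for 15 genes named by rule (7 of them not called), with the rest by range and counts; Slc30a3, Slc39a6, Mt3 and Slc41a3 were added after their values were seen. The genes, lists and tests were chosen with earlier results of these data known. Alternatives were RLE and total-count scaling, no filter, DESeq2 1.42.0, fits of the 4 libraries compared, a replicate block, ribosomal RNA genes left out, and each library left out in turn. Leaving out USg 1 and DSg 1 together was added after the data were seen.

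Chromosomes, names, overlaps and promoters are from RefSeq, assembly GRCr8, which is not the build of the counts; 45 of the 46 symbols matched as current names and 1 as an older name, and 37 had a promoter.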

Additional observations from a re-analysis of the deposited data

How the results depend on the processing

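Over 14 alternatives, the Spc over USg calls of Cp, Fth1, Hamp, Slc30a2, Slc30a4, Slc39a1, Slc39a4 and Steap1, and the Spc over DSg calls of Hamp, Slc30a2 and Slc39a1, passed in all. Hamp passed the filter through the Spc libraries alone, so its calls add no separate support here either. Slc39a9 in Spc over USg missed the threshold in 10 of 14. With all libraries kept, total-count scaling also ended the calls of Steap4 over USg (adjusted p = 0.0518) and of Slc11a2 (0.0568), Slc31a1 (0.0791) and Slc39a14 (0.0963) over DSg, and no filter ended that of Steap2 over USg (0.0801). Total-count scaling moved the median log2 fold change of all genes to 0.16 for DSg over USg and −0.22 for Spc over DSg; no filter gave −0.23 for Spc over DSg.

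For DSg over USg, the genes called lower were 3 with no filter (Fth1, Mt1a and Slc30a3), 1 with the replicate block (Fth1, −1.59, adjusted p = 0.0206) and 12 without USg 1 and DSg 1, where 9 were higher; leaving out a library gave 0 to 2 higher and 0 to 3 lower. All genes called there were 189 higher and 855 lower with no filter, 239 and 542 with DESeq2, 10 and 80 in the fit of 4 libraries, and 0 and 0 without DSg 1 or DSg 2. For Spc over USg, 14 were higher with the block and 18, with 10 lower, without USg 1 and DSg 1; leaving out a library gave 5 to 14 higher and 4 to 7 lower. For Spc over DSg, total-count scaling gave 5 higher, the fit of 4 libraries 13, the block 12, and the fit without USg 1 and DSg 1 16 with 9 lower; leaving out a library gave 2 to 13 higher and 1 to 4 lower.

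The replicate numbers did not pair Spc with the spermatogonial libraries (correlations of same-numbered deviations −0.27 with USg and 0.01 with DSg). Between DSg and USg the correlation was 0.25, so same-numbered libraries of the line shared part of their deviations. The source of this was not tested, and the block is a description only. Beside Fth1 in DSg over USg, the block added Mt1a, Mt2A, Slc41a3, Steap3 and Tfrc to the genes higher in Spc over USg.

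Changes of sign touched only differences that were not called with all libraries. DSg over USg changed sign with no filter for Slc30a2 (−0.075) and Slc31a1 (−0.059), with the block for Cp (0.16), and without USg 1 and DSg 1 for Cp (1.34), Slc30a2 (−0.22) and Slc31a1 (−0.044). With a library left out it ran from −1.35 to 2.42 for Cp, −0.37 to 0.51 for Slc30a2, −0.22 to 0.30 for Slc31a1, −3.92 to 1.42 for Mt1a, −0.16 to 1.02 for Steap4, −1.15 to 0.20 for Steap1 and, with values that depend on the prior count, 0.00 to 5.42 for Hamp. Spc over USg ran from −0.065 to 0.67 for Atp7a, −0.28 to 1.27 for Ftl1 and −0.032 to 0.39 for Slc39a10. Spc over DSg ran from −0.15 to 0.36 for Steap3, −0.44 to 0.063 for Atp7a, −1.73 to 0.028 for Fth1 and −0.31 to 0.019 for Slc39a9, and was 0.15 with no filter and 0.024 with the block for Steap3, and 0.001 for Atp7a without USg 1 and DSg 1. The cause of these changes was not tested.

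With 2 libraries a group, differences of the size seen for Tfrc, Steap3 and Slc30a1 lie near the threshold, and a miss does not show that levels were equal. Genes under about 5 CPM rest on few counts.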

Other observations

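In USg and in DSg alike, 6 of the 41 tested metal genes (14.6%) were more than 2-fold higher in library 2 than in library 1: Mt1a, Mt3, Slc30a3, Slc39a3, Slc39a11 and Slc41a3. Over all genes tested, 549 of 12210 (4.50%) did so. The opposite pattern was seen in 1 metal gene (2.44%) and in 222 of all genes (1.82%). Library 1 is the ribosomal RNA-rich one in both stages, and the part of this in the pattern was not tested. The SD of the log2 difference between the libraries of a group was 1.32 for the metal genes in USg, 1.09 in DSg and 0.39 in Spc, beside 0.95, 0.95 and 0.43 for all genes.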
